A study of Mus musculus with 6 samples.

Results

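The genes described here are 10 regulators of the G1 phase of the cell cycle: the D-type cyclins Ccnd1, Ccnd2 and Ccnd3, cyclin E1 (Ccne1), the kinases Cdk4 and Cdk6, the kinase inhibitors Cdkn1a and Cdkn1b, the retinoblastoma gene Rb1, and Myc. They were found by their symbols in the authors' table of normalized values, and their raw counts were read by gene identifier. All 10 were among the 15903 genes that reached a total count of 10 and were tested, of 57010 annotated genes in the raw table. They were measured in bone marrow-derived macrophages (BMDMs), which grow out of marrow cells in culture when M-CSF is given. The marrow came from 3 Cx3cr1GFP mice on the C57BL/6J background, which carry a GFP sequence at the Cx3cr1 locus in both groups, and whether on one or both alleles is not given in the sources used here. After 7 days with 10 ng/ml M-CSF, cells of each mouse were left unstimulated (control, n = 3 libraries) or received 62 mM excess NaCl for 24 h (NaCl, n = 3 libraries). Floating cells were discarded and only adherent cells were sequenced, so the libraries describe the cells that stayed attached.

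Cells that receive a growth signal such as M-CSF make D-type cyclins, which bind CDK4 or CDK6 and begin to phosphorylate the retinoblastoma protein. Cyclin E with CDK2 then completes this step, E2F factors are released, and the genes of DNA replication are transcribed. The inhibitors p21 (Cdkn1a) and p27 (Cdkn1b) hold cyclin E and CDK2 back, p21 is a classic target of p53, p27 is raised by FOXO factors, and MYC drives growth and the transcription of ribosome biogenesis genes. In macrophages, M-CSF is the main growth signal, and cyclin D1 is known to be induced by it.

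The libraries held between 8520433 and 20123570 counts in the control group and between 4088065 and 11610020 in the NaCl group, with NaCl replicate 3 the shallowest. Values are CPM, the usual depth-scaled counts, with library sizes adjusted by the TMM method, and fold changes are on the log2 scale, NaCl against control. The edgeR quasi-likelihood test was fitted over all genes tested, once with treatment alone and once with the mouse as a block. The study's methods also compared NaCl with control and name no other term, but they used DESeq2, given below as an alternative. For the block, libraries with the same mouse number were taken to come from the same mouse in both groups. Whether the libraries are separate cultures beyond the mouse number is not stated. A gene was called at an adjusted p under 0.05 over all genes tested. The cells carried macrophage transcripts: the 10 macrophage markers summed to between 15680 and 16965 CPM in control and between 24368 and 32097 CPM in NaCl libraries. Lyz2 made up most of this sum, and of the 10 markers 5 had a log2 fold change above and 5 below 0, with a median of 0.008.

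Without the block, 0 of the 10 genes were called, in either direction, where 0.478% of all genes were called higher and 0.176% lower. At an unadjusted p under 0.05 in that fit, 2 of the 10 (Ccnd3 and Ccne1) were higher and 3 (Ccnd2, Cdk6 and Cdkn1a) lower, against 6.63% and 6.01% of all genes. With the block, Ccne1 was called higher and Ccnd2, Cdk6, Cdkn1a and Rb1 lower, which is 1 and 4 of the 10, where 4.60% of all genes were called higher and 4.30% lower. DESeq2 without a block called 0 higher and 2 lower, Cdk6 and Cdkn1a, where it called 1.54% and 0.975% of all genes. DESeq2 with the block called 1 higher and 3 lower and left out Rb1, where it called 2.84% and 2.23% of all genes. In 3 of 3 mice, Ccnd3, Ccne1 and Cdk4 were higher in NaCl and Ccnd2, Cdk6, Cdkn1a and Rb1 lower, where 20.1% of all genes were higher and 23.4% lower in every mouse. The 3 NaCl libraries all lay above the 3 controls for Ccnd3, and all lay below them for Cdk6, Cdkn1a and Rb1, where 8.92% and 10.1% of all genes were separated in this way. In bulk RNA, fewer cells that express a gene and less RNA of that gene per cell cannot be told apart.

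**Figure D1:**
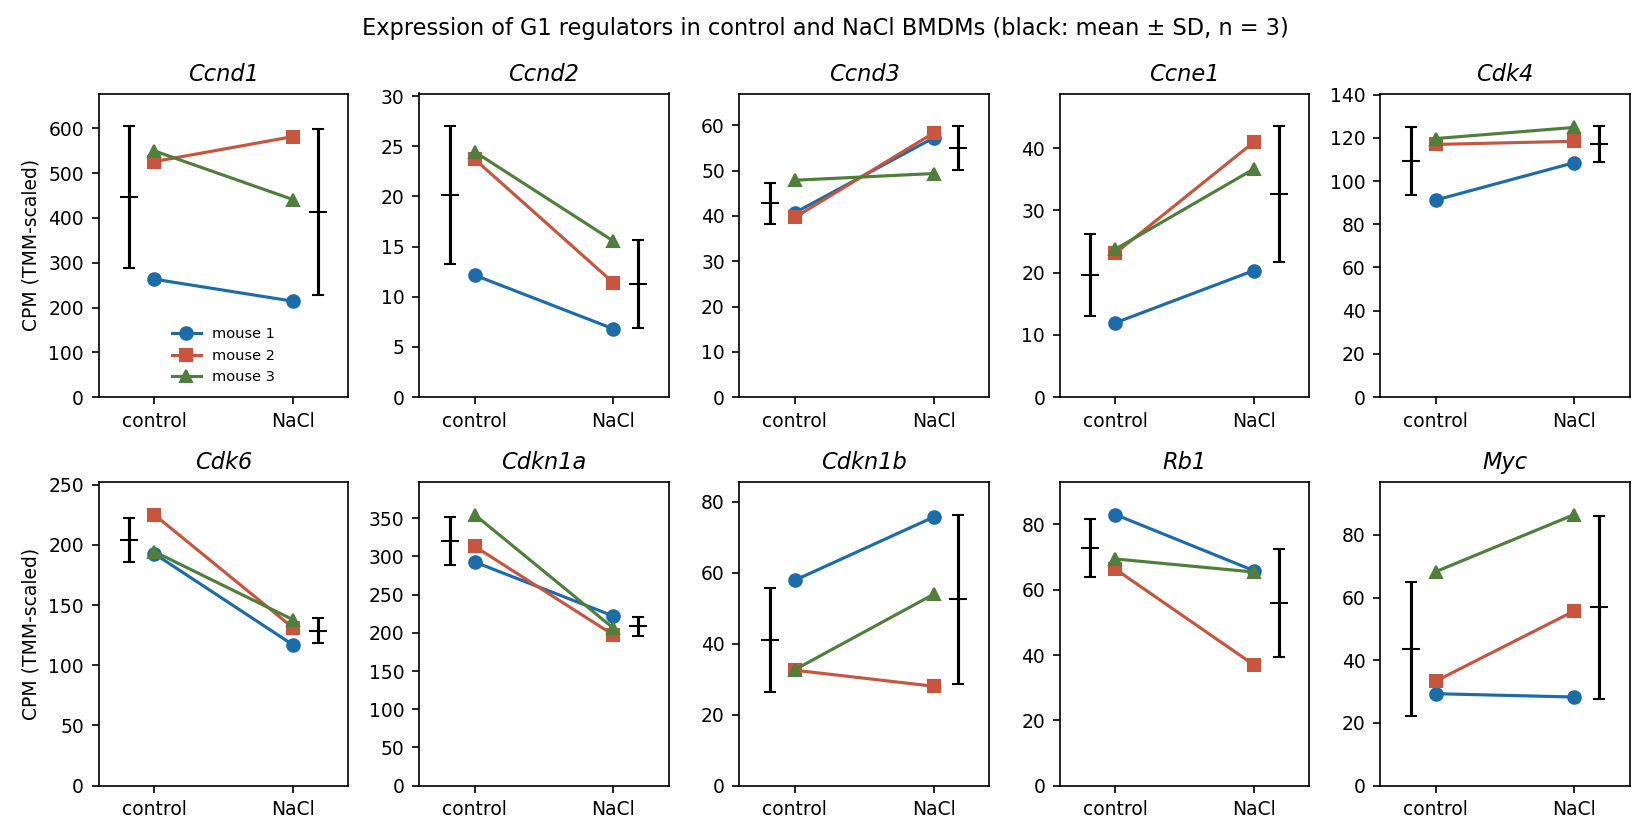
CPM (TMM-scaled, linear axis from 0) of the 10 genes in the control and NaCl libraries, with the 2 libraries of each mouse joined by a line and black bars for the mean ± SD of 3 libraries. Cdk6 and Cdkn1a were lower in NaCl in every mouse, at 129 and 209 CPM on average, whereas Ccnd1, Cdkn1b and Myc spread more between mice than between treatments.

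**Figure D2:**
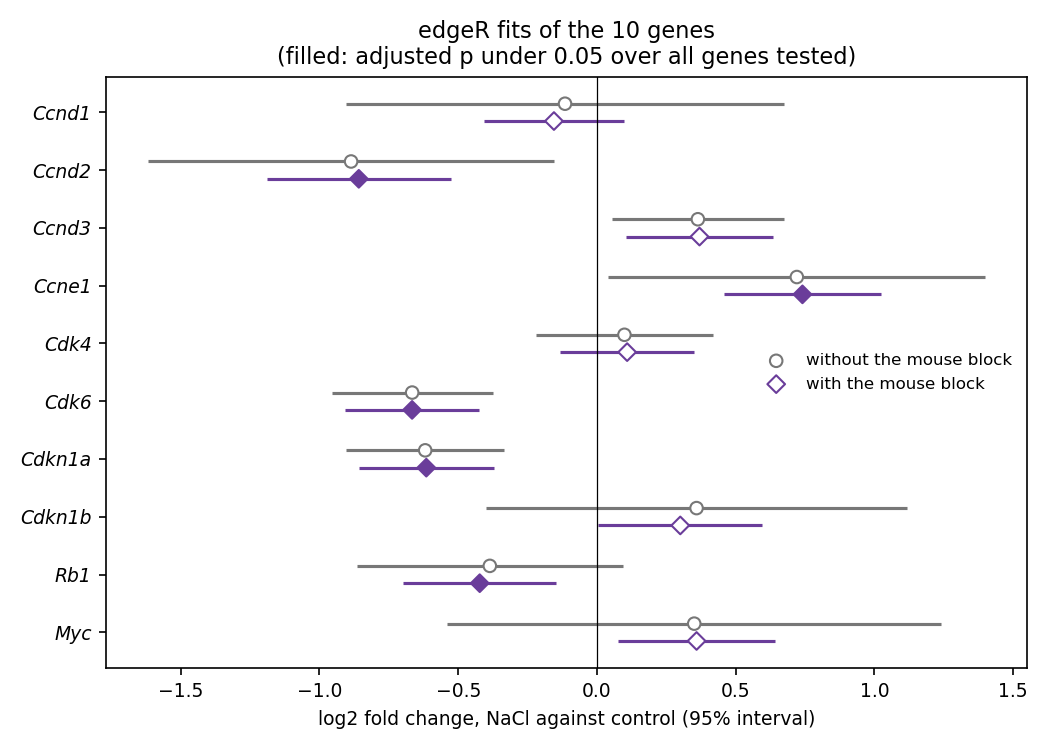
Log2 fold change, NaCl against control, of the 10 genes in edgeR fits without (grey circles) and with (purple diamonds) the mouse block, with 95% intervals. Filled symbols mark an adjusted p under 0.05 over all genes tested: 5 with the block and 0 without it.

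The sequences that could be shown beside these values are promoters, from 250 bases before to 50 bases after the start of a gene in RefSeq on GRCm38.p6. Entries were matched for 6 of the 10 genes, as 8 promoters. The promoters of Cdk6, Ccne1, Cdkn1a and Cdk4 are printed: the first 3 belong to genes called with the block and the last to the partner kinase of Cdk6. Capitals mark CACGTG, the E-box letters that MYC and MAX bind, in Cdk6 and Cdk4, the letters GGGCGG or their reverse complement, known as the GC box, in Ccne1, and matches to the consensus decamer of p53, which binds such decamers in pairs, in Cdkn1a. Each is written 5′ to 3′ on the strand of its gene.
Cdk6 (chr5:3343643-3343942, plus strand): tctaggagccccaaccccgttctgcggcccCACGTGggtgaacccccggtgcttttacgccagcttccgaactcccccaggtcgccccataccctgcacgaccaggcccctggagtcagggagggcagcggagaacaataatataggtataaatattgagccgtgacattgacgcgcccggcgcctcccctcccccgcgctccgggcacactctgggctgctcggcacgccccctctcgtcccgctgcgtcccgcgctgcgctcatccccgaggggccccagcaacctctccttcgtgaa
Cdk4 (chr10:127063285-127063584, plus strand): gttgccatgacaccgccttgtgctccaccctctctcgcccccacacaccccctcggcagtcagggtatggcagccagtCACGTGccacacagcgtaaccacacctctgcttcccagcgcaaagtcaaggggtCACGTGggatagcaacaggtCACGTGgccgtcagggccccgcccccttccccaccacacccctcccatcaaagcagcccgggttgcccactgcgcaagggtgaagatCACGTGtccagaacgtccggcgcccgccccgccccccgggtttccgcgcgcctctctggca
Ccne1 (chr7:38107441-38107740, minus strand): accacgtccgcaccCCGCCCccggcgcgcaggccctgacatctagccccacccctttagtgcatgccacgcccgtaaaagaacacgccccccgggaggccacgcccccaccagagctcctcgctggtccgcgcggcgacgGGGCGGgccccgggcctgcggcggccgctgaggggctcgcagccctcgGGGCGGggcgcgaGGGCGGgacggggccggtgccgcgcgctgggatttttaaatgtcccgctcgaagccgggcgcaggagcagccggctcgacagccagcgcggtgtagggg
Cdkn1a, the upstream of 2 entries (chr17:29090729-29091028, plus strand): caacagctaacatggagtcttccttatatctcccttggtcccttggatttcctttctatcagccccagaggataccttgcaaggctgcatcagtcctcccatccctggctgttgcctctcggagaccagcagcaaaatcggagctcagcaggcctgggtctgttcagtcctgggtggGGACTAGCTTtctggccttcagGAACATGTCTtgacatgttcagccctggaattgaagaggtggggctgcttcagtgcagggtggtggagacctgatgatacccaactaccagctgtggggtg

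Both strands of 32851 promoters of the same length were searched for the same letters. The search also covered motifs that are not marked, among them AP-1 and a pattern known as the tonicity element. The motif marked in a window was picked per gene from those it held. The shares of all promoters given here are therefore a description and no test of rarity. The Cdk4 window held CACGTG 4 times, at positions -172, -118, -98 and -11 from the start site, and the Cdk6 window held it once, at -220. At least 1 CACGTG stood in 7.15% of all promoters and at least 4 in 8 of them (0.0244%). The Ccne1 window held 4 GC boxes, where 5.49% of all promoters held at least 4, and its GC content was 76.0%, where the median promoter had 52.7%. The upstream Cdkn1a window held 2 p53 decamers, at -73 and -51, against 0.359% of all promoters with at least 2. Only exact matches were counted. The bases directly after the second decamer differ from the consensus in 1 letter and are therefore not marked. Which decamers form a pair was not tested. The other Cdkn1a window, which is not printed and starts at chr17:29093519, held no p53 decamer and 2 GC boxes. None of the marked matches in a window overlaps another. The E2F letters TTTCCCGC, TTTCGCGC, TTTGCCGC and TTTGGCGC stood in 2.26% of all promoters and in none of the 8 windows of these genes, which says only that these letters are not there. The tonicity element stood in 4.96% of all promoters and the AP-1 letters in 5.20%, and none of the 8 windows held either. Such matches describe letters and show no binding.

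The D-type cyclins carry the growth signal to CDK4 and CDK6, and Ccnd1 was by far the most abundant of them. Per kilobase of exon, Ccnd1 took between 90.4% and 94.1% of the summed D-type cyclin level in control and between 86.3% and 94.0% in NaCl libraries. The lengths joined the exons of all annotated transcripts, at 4709 bases for Ccnd1, 9409 for Ccnd2 and 8775 for Ccnd3. Shares would differ if the cells used shorter transcripts, which was not tested. Ccnd1 (chromosome 7) was at 263, 526 and 550 CPM in control replicates 1, 2 and 3 and at 214, 582 and 441 CPM in NaCl replicates 1, 2 and 3. The libraries of mouse 1 were the lowest of both groups, and the groups overlapped. Its log2 fold change was -0.11 ± 0.35 (SE), with an adjusted p of 0.934 without and of 0.512 with the block. The 95% interval with the block ran from -0.41 to 0.10. With the block and mouse 2 left out, Ccnd1 was called lower, at an adjusted p of 0.0293.

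Ccnd2 (chromosome 6), a D-type cyclin that many cells make on growth signals and that is listed among MYC targets, was at 12.2, 23.7 and 24.5 CPM in the control and at 6.82, 11.4 and 15.6 CPM in the NaCl libraries. Every mouse had less Ccnd2 in NaCl, but control replicate 1 lay among the NaCl libraries. These CPM rest on few reads, from 61 counts in NaCl replicate 1 to 485 in control replicate 3. The log2 fold change was -0.89 ± 0.33 without the block (adjusted p = 0.304) and -0.86 ± 0.16 with it, and with the block Ccnd2 fell 1.81-fold at an adjusted p of 0.00079. This call was kept with each mouse left out in turn, at adjusted p of 0.00551 or less. Such fits use fewer libraries than the full one and are no stricter check. Without the block and with any 1 library left out, Ccnd2 was not called (adjusted p of 0.132 to 0.732). In the D-type cyclin sum per kilobase, the share of Ccnd2 was between 2.08% and 2.13% in every control and between 0.924% and 1.64% in NaCl libraries.

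Ccnd3 (chromosome 17), the D-type cyclin known for its role in blood and lymphoid cells, was at 40.7, 39.7 and 47.9 CPM in the control and at 57.2, 58.3 and 49.3 CPM in the NaCl libraries. The groups did not overlap, but in mouse 3 the values differed by only 0.04 on the log2 scale. The log2 fold change of 0.36 ± 0.14 had an adjusted p of 0.321 without and of 0.0734 with the block. With the block and mouse 3 left out, it was called higher at an adjusted p of 0.0183. Within a library, Ccnd3 had between 1.67 and 3.35 counts per Ccnd2 count in control and between 3.17 and 8.39 in NaCl, with a rise in each of the 3 mice and an overlap between the groups.

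Ccne1 (chromosome 7), which activates CDK2 late in G1, was at 11.9, 23.1 and 23.8 CPM in the control and at 20.3, 41.0 and 36.7 CPM in the NaCl libraries. Both libraries of mouse 1 were the lowest of their group, so the groups overlapped, yet the 3 mice gave log2 ratios of 0.76, 0.82 and 0.62. In the fit of treatment alone, Ccne1 had a log2 fold change of 0.72 ± 0.30 (adjusted p = 0.371). With the block it was 0.74 ± 0.14, and Ccne1 rose 1.67-fold at an adjusted p of 0.000719, a call kept with each mouse left out (adjusted p up to 0.00801). Without the block and with any 1 library left out, Ccne1 was not called (adjusted p of 0.107 to 0.653). Ccne2, the other E-type cyclin, had a log2 fold change of 0.24 ± 0.15 with the block (adjusted p = 0.376).

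CDK4 and CDK6 are the kinases that D-type cyclins bind. With the block Cdk6 was called lower and Cdk4 was not called, and the difference between their changes was not tested. Cdk4 (chromosome 10) was at 91.2, 117 and 120 CPM in the control and at 109, 118 and 125 CPM in the NaCl libraries. The ranges overlapped, and the log2 fold change was 0.10 ± 0.14 (adjusted p = 0.827 without and 0.659 with the block, 95% interval with the block -0.13 to 0.35). Cdk6 (chromosome 5) was at 193, 225 and 195 CPM in the control and at 117, 131 and 138 CPM in the NaCl libraries. All NaCl libraries were below all controls, with log2 ratios of -0.72, -0.78 and -0.50 in mice 1, 2 and 3. The log2 fold change was -0.67 ± 0.13 and missed the threshold without the block (adjusted p = 0.0563). Cdk6 fell 1.59-fold with the block (-0.67 ± 0.12, adjusted p = 0.000396) and by DESeq2 without it (adjusted p = 0.00147). With the block and any 1 mouse left out, the adjusted p stayed at 0.0276 or less. Without the block and with any 1 library left out, Cdk6 was not called (adjusted p of 0.0818 to 0.405).

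In the same library, Cdk6 had 2.11, 1.93 and 1.63 counts per Cdk4 count in control replicates 1, 2 and 3, and 1.08, 1.11 and 1.11 in the NaCl replicates. These counts are not corrected for length. Per kilobase of exon, Cdk4 was 2.04 to 2.65 times as abundant as Cdk6 in control and 3.88 to 3.99 times in NaCl libraries. The lengths behind this, over all annotated transcripts, were 3249 bases for Cdk4 and 13989 for Cdk6. The ratios of all 3 NaCl libraries lay within a narrow range outside that of the controls. The ratios were chosen after the values were seen and carry no test.

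**Figure D3:**
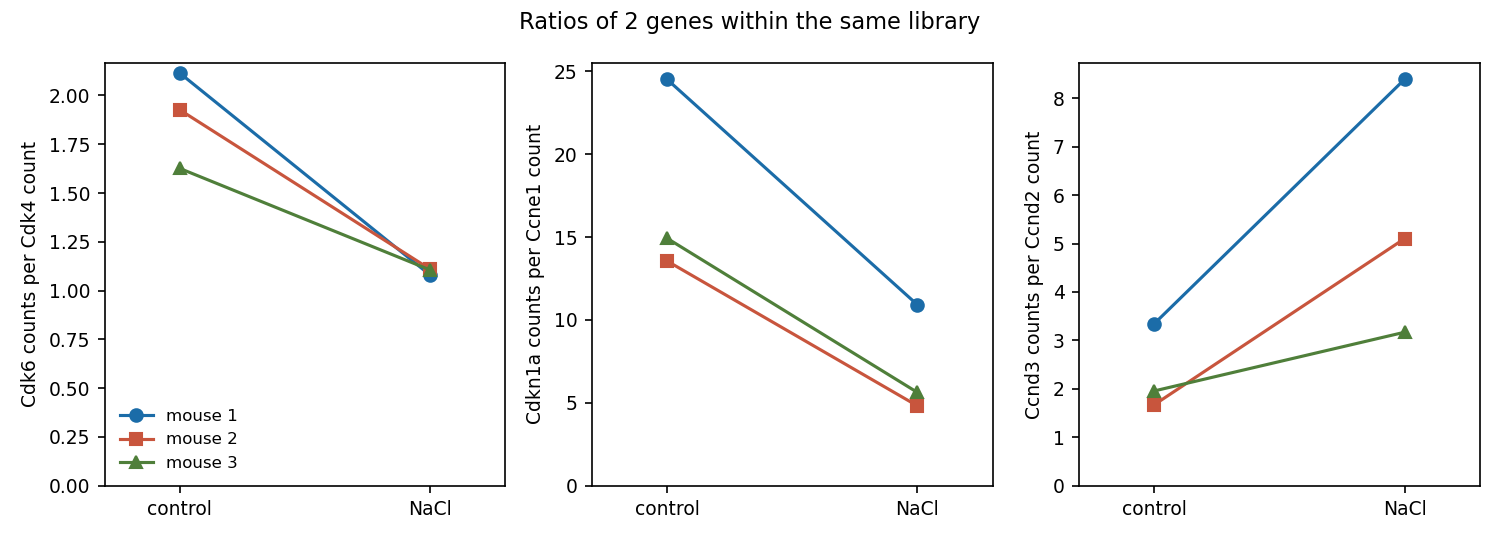
Ratios of raw counts of 2 genes within each library (linear axes from 0), with the control and NaCl library of each mouse joined by a line. Cdk6 counts per Cdk4 count came together at 1.08 to 1.11 in NaCl, Cdkn1a counts per Ccne1 count were lower in NaCl in every mouse, and Ccnd3 counts per Ccnd2 count were higher in every mouse.

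Of the inhibitors, Cdkn1a (chromosome 17), which encodes p21, was at 293, 313 and 355 CPM in the control and at 222, 197 and 206 CPM in the NaCl libraries. All NaCl libraries were below all controls, with log2 ratios of -0.40, -0.67 and -0.78 in mice 1, 2 and 3. The log2 fold change was -0.62 ± 0.13 and missed the threshold without the block (adjusted p = 0.0720). Cdkn1a fell 1.53-fold with the block (-0.61 ± 0.12, adjusted p = 0.00102) and was also called by DESeq2 without it (adjusted p = 0.00272). With the block and 1 mouse left out, its adjusted p stayed at 0.0225 or less. Without the block and with any 1 library left out, Cdkn1a was not called (adjusted p of 0.0726 to 0.367). Since Cdkn1a was lower and Ccne1 higher, the counts of Cdkn1a per Ccne1 count went from 24.5, 13.6 and 14.9 in the control to 10.9, 4.82 and 5.63 in the NaCl libraries.

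Cdkn1b (chromosome 6), which encodes p27, followed the mice more than the treatment. It was at 57.9, 32.5 and 32.7 CPM in the control and at 75.7, 28.0 and 53.9 CPM in the NaCl libraries. Mouse 1 was highest in both groups, and NaCl was higher in mice 1 and 3 and lower in mouse 2. The log2 fold change was 0.36 ± 0.34 (adjusted p = 0.715), and 0.30 ± 0.14 with the block (adjusted p = 0.217). With the block and mouse 2 left out, Cdkn1b was called higher, at an adjusted p of 0.000207.

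Rb1 (chromosome 14), the substrate of the G1 kinases, was at 83.0, 66.3 and 69.4 CPM in the control and at 65.8, 37.0 and 65.4 CPM in the NaCl libraries. The groups did not overlap, but the lowest control and the highest NaCl library lay at 66.3 and 65.8 CPM, and the log2 ratios of -0.33, -0.84 and -0.09 in mice 1, 2 and 3 were unequal. Its log2 fold change was -0.39 ± 0.21 (adjusted p = 0.503). With the block Rb1 was called lower at -0.42 ± 0.13, with an adjusted p of 0.0469. That call was lost with mouse 1 left out (0.163), with mouse 2 left out (0.305) and in DESeq2 with the block (0.152).

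Myc (chromosome 15), the growth factor-induced transcription factor, was at 29.3, 33.3 and 68.3 CPM in the control and at 28.3, 55.7 and 86.5 CPM in the NaCl libraries. In both groups mouse 3 was highest and mouse 1 lowest, and the groups overlapped. NaCl was higher in mice 2 and 3 and differed by -0.05 on the log2 scale in mouse 1. The log2 fold change was 0.35 ± 0.40 (adjusted p = 0.766), and 0.36 ± 0.14 with the block (adjusted p = 0.105).

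Per kilobase of exon, the order from high to low in control was Ccnd1, Cdkn1a, Cdk4, Myc, Cdk6, Rb1, Cdkn1b, Ccne1, Ccnd3 and Ccnd2, from 94.8 CPM per kilobase for Ccnd1 to 2.14 for Ccnd2. In NaCl, Ccnd1, Cdkn1a, Cdk4 and Myc kept the first 4 places, Ccne1 was the fifth, Cdkn1b the sixth, Rb1 the seventh and Cdk6 the eighth, and Ccnd3 and Ccnd2 again came last. In control, the ranges of neighbours in that order did not overlap between Cdkn1a and Cdk4, between Cdk4 and Myc, or between Ccnd3 and Ccnd2. The mean of Cdk6 went from 14.6 to 9.21 and that of Ccne1 from 7.36 to 12.3 CPM per kilobase. In NaCl, Ccne1 was above Cdk6 in mice 2 and 3 but below it in mouse 1, and the ranges of neighbours from the fourth to the eighth place overlapped, so the order of these places is not resolved. The whole order also depends on the annotated exon lengths.

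The variance of log2 CPM over the 6 libraries was divided into parts between treatments, between mice and the rest, as a description. For Cdk6 and Cdkn1a, 91.5% and 91.3% lay between treatments, where the median over all genes was 19.2%. For Ccnd1, Myc, Cdkn1b and Cdk4, 94.3%, 85.8%, 78.3% and 74.9% lay between mice, where the median gene had 44.8%. Ccne1 and Ccnd2 had large shares of both, with 40.3% and 44.0% between treatments and 59.2% and 54.3% between mice. Mouse 1 lay apart for several of them: in its control library Ccnd1 was 1.03, Ccnd2 0.975 and Ccne1 0.961 log2 units below the mean of mice 2 and 3, and Cdkn1b 0.824 above it. In its NaCl library the same genes lay 1.24, 0.949 and 0.924 below and 0.958 above.

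**Figure D4:**
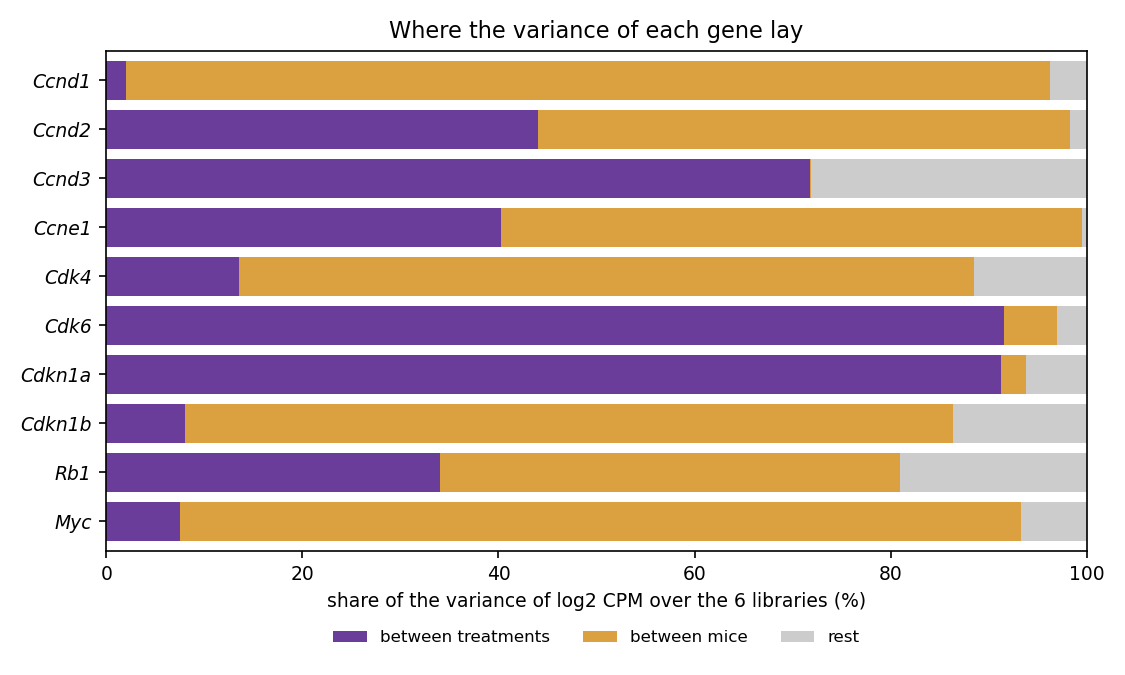
Share of the variance of log2 CPM over the 6 libraries (%) that lay between treatments (purple), between mice (yellow) and in the rest (grey). Cdk6 and Cdkn1a varied mainly between treatments (91.5% and 91.3%), Ccnd1 and Myc mainly between mice (94.3% and 85.8%).

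Genes around these 10 were read from fixed lists. Of 29 other genes of G1 control, 1 was called higher and 0 lower without the block, and 8 higher and 0 lower with it, where 0.478% and 0.176% of all genes were called without the block and 4.60% and 4.30% with it. E2f2, an E2F factor that activates transcription, rose 0.75 ± 0.13 (adjusted p = 0.0384 without the block) and was also called by DESeq2 (0.000167). When each library was left out in turn without the block, E2f2 passed only without NaCl replicate 1 (adjusted p = 0.0426), and lay between 0.0724 and 0.304 without each of the others. With the block, Cks1b, a CDK-binding factor needed for the removal of p27, rose by 0.84 ± 0.15 (adjusted p = 0.000298), E2f8, a repressing E2F, by 0.61 ± 0.13 (0.0028), and Cdkn2d, an inhibitor of CDK4 and CDK6, by 0.72 ± 0.14 (0.000803). E2f1 (0.35 ± 0.14, adjusted p = 0.114) and Cdk2 (0.27 ± 0.12, adjusted p = 0.179) did not pass with the block. The genes of this list that passed included an activator, a repressor and an inhibitor.

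Of 20 E2F target genes of DNA replication, 0 were called without the block. In that fit 4 of them had an unadjusted p under 0.05, as did 12.6% of all genes. DESeq2 without the block called 1 of them higher, where it called 1.54% of all genes higher. With the block, edgeR called 13 of the 20 higher, against 4.60% of all genes. The median log2 fold change was 0.47 with the block, beside -0.017 for all genes. Tk1 (thymidine kinase), Uhrf1, Mybl2 and Ccna2 (cyclin A2) had the largest changes, from 0.59 ± 0.14 for Uhrf1 to 0.66 ± 0.13 for Tk1. With the block and mouse 1, 2 or 3 left out, 9, 13 and 11 of the 20 were called higher, and Mybl2 was not among them with mouse 2 left out (adjusted p = 0.367). All 10 markers of G2 and mitosis were called higher with the block and 3 without it, namely Aurkb (0.95 ± 0.15), Plk1 (0.94 ± 0.15) and Ccnb1 (0.86 ± 0.13). Leaving out a library kept the call without the block of all 3 only for NaCl replicate 1, and of Plk1 also for control replicate 1, and with each of the others the adjusted p was between 0.0533 and 0.267. Mki67, the proliferation marker, had 418, 335 and 342 CPM in the control and 577, 444 and 700 CPM in the NaCl libraries (adjusted p = 0.162 without and 0.0016 with the block, and 0.0729 with the block and mouse 3 left out). The summed CPM of the 10 markers was between 923 and 1094 in control and between 1444 and 1843 in NaCl libraries. All 10 markers were higher in NaCl in each of the 3 mice. Ccne1 was also higher, and Cdkn1a and Cdk6 lower, in every mouse, so the mice do not set these changes apart. The part of the markers in those differences was not tested.

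**Figure D5:**
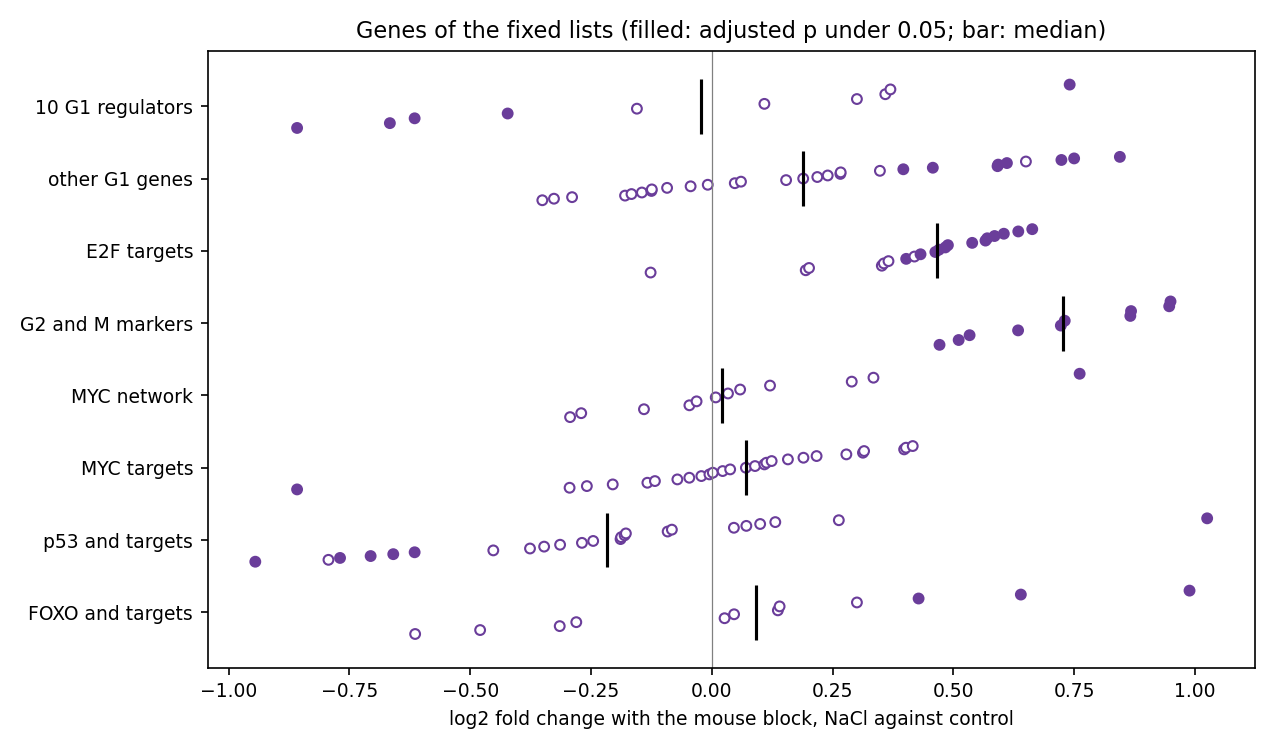
Log2 fold change with the mouse block (x axis) of each gene of the 10 regulators and of 7 lists of pathway genes (rows), with filled points for an adjusted p under 0.05 and a bar at the median of the list. G2 and M markers (median 0.73) and E2F targets (median 0.47) lay to the right, MYC targets around 0, and the 10 regulators on both sides.

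The target lists of MYC, p53 and FOXO were read beside their factors. Of 25 MYC target genes other than Cdk4 and Ccnd2, 0 were called in either direction by edgeR without or with the block or by DESeq2 without it, and their median log2 fold change was 0.08 without it. Of all 27 MYC targets, 3 were called higher with the block and mouse 3 left out. At an unadjusted p under 0.05 without the block, 1 of all 27 MYC targets, Ccnd2 included, passed, where 12.6% of all genes did. Max, the partner of MYC, had a log2 fold change of -0.14 ± 0.13 (adjusted p = 0.712). In the MYC network of 12 genes tested of 14, Mxd3, a MAX-binding repressor, was called higher with the block (0.76 ± 0.22, adjusted p = 0.0275). That call was lost with mouse 2 (adjusted p = 0.137) or mouse 3 (0.0786) left out.

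Of 23 tested p53 genes other than Cdkn1a, 0 were called by edgeR or DESeq2 without the block. In that edgeR fit, 8 of all 24, Cdkn1a included, had an unadjusted p under 0.05, as did 12.6% of all genes. With the block, 4 were called lower (Sesn2, Ccng1, Phlda3 and Trp53inp1) and 1 higher (Btg2), where 4.30% of all genes were called lower and 4.60% higher. Sesn2, which restrains mTORC1, was at 40.0, 35.8 and 36.8 CPM in the control and at 31.4, 12.6 and 17.7 CPM in the NaCl libraries (-0.94 ± 0.17 with the block, adjusted p = 0.000395). Ccng1, a cyclin induced by p53, fell by 0.77 ± 0.15 with the block, and Phlda3 by 0.66 ± 0.16. The call of Phlda3 was lost with mouse 3 left out (adjusted p = 0.111). Btg2, an antiproliferative gene, rose by 1.03 ± 0.14 with the block (adjusted p = 1.4e-05). Mdm2, the p53 target that degrades p53, had a log2 fold change of 0.07 ± 0.16 (adjusted p = 0.904), and Trp53 itself 0.26 ± 0.15 (adjusted p = 0.513). Mdm2 and Trp53 did not pass in any of the 18 settings tried, the fit without the block included.

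Of the 11 FOXO genes other than Cdkn1b, Klf2, a transcription factor of quiescent cells, was called higher without the block (0.98 ± 0.18, adjusted p = 0.048), where 0.478% of all genes were. When libraries were left out, the call of Klf2 held only without NaCl replicate 1 (0.0366, others 0.0943 to 0.33). Klf2, Txnip and Bcl6 were called higher with the block, where 4.60% of all genes were. Txnip, which limits glucose uptake, was at 562, 293 and 320 CPM in the control and at 759, 473 and 556 CPM in the NaCl libraries (0.64 ± 0.12 with the block, adjusted p = 0.000693). Bcl6, a transcriptional repressor, lost its call with mouse 1 left out (adjusted p = 0.194).

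The markers of other cells that the cultures could hold are given by their summed levels. The summed CPM of 7 dendritic cell markers was at most 4.8 and that of 8 progenitor markers between 32.6 and 43.8 over the 6 libraries, and those of the 3 lymphoid, 2 erythroid and 4 stromal markers tested were at most 12.7, 2.68 and 5.5. A total count of 10 was not reached by 4 of 6 erythroid markers, the globins Hba-a1 and Hbb-bt among them, or by 2 of 6 stromal markers. Neutrophil markers summed to between 252 and 552 CPM in control and between 276 and 401 CPM in NaCl, and monocyte markers to between 179 and 320 and between 152 and 366. Without the block, all 8 neutrophil markers had a log2 fold change below 0, with a median of -0.36. Of these 8, 0 were called in that fit and 1 was lower in every mouse. Of the 6 monocyte markers, 3 lay above and 3 below 0. With the block, Cd34 and F13a1 were called higher and Mpo and Ngp lower among the progenitor, monocyte and neutrophil lists. Among 10 macrophage markers, Csf1r, the receptor of M-CSF, Lyz2 and Cd14 were called higher with the block, and Mertk lower. The part of these cells in the values above was not tested.

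The libraries carried no strand information, so reads from bases shared with a gene on the opposite strand cannot be assigned by strand. Whether such reads were counted for a gene or set aside was not tested. The lengths used for levels per kilobase include these bases. In GENCODE M21, 23.4% of the exonic bases of Ccnd1 overlapped such a gene, 19.7% of those of Cdk4, 14.9% of those of Rb1 and 7.68% of those of Cdkn1a, whereas Ccne1, Cdkn1b and Myc overlapped none. For Cdk6, Ccnd2 and Ccnd3 the share was between 2.63% and 7.86%.

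By the likeness of log2 CPM over the 6 libraries, each gene centred on its mean, the nearest of 9923 genes to Cdk6 were Asph, Gfpt1 and Pkib, with root mean square differences of 0.067, 0.087 and 0.093 log2 units. The nearest to Ccne1 were Pdlim7 (0.091), Chaf1a (0.092), which assembles chromatin behind the replication fork, and Fanca (0.12). The nearest to Ccnd2 were Gsta3 (0.088), A530064D06Rik (0.15) and Slc7a1 (0.19), a transporter of cationic amino acids.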

How the data were processed

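RNA was measured in 6 libraries, a control and a NaCl library from each of 3 mice. Per the submitters' notes and the study's methods, single-end reads of 75 bp were cleaned by the authors in fastp 0.20.0 and mapped in STAR 2.7.10b, and the authors deposited raw counts of reads per gene, and the same counts divided by DESeq2 1.40.2 size factors as a normalized signal. The methods name mm10 with GENCODE vM32, an annotation of another build, so genes are placed by chromosome only. The normalized signal gave the symbols, and the deposited counts gave all values.

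The edgeR 4.0.16 quasi-likelihood test (TMM, R 4.3.3) was run on the 15903 genes whose counts summed to 10 or more, with Benjamini-Hochberg adjustment over all of them. DESeq2 1.42.0 and limma-voom (limma 3.58.1) were alternatives, with other scalings and filters, the mouse block, and each library or mouse left out. Same-mouse libraries deviated together (coefficients across genes of 0.43, 0.15 and 0.22 for mice 1, 2 and 3, other pairs -0.35 to 0.12). Mouse 2, at 0.15, lay close to the highest other pair, at 0.12. A batch shared by a replicate number cannot be told apart from the mouse. The counting error of the shallowest library, NaCl replicate 3 with 4088065 counts, is the largest.

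The genes and lists were chosen with earlier results of these data known. Named are the 10 regulators, the 4 largest changes called per list in either fit, Trp53, Mdm2, Max, E2f1, Cdk2 and Mki67, and, of the markers, those called. Other genes were named after their values were seen. Levels per kilobase used the joined exons of all transcripts of a gene in GENCODE M21, so they depend on which transcripts are annotated. Log2 CPM used a prior count of 2. The fits were run on simulated counts with a fixed dispersion and with larger changes than those of the 10 regulators. This gives no error rate for these data. Python 3.11.15 was used for the other steps.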

Additional observations from a re-analysis of the deposited data

How the results depend on the processing

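The numbers of genes higher in NaCl (76) and of genes lower in NaCl (28) without the block depended on the setting. DESeq2 called 245 higher and 155 lower, the replicate block 732 and 684, DESeq2 and the block together 452 and 354, and a filter that kept every gene with 1 count called 362 and 300. Leaving out 1 library gave between 8 and 123 higher and between 0 and 46 lower, and the block with mouse 1, 2 or 3 left out gave 469, 758 and 715 higher and 417, 661 and 585 lower. Of the 10 regulators, the replicate block (paired by mouse) called 1 higher and 4 lower, DESeq2 0 and 2, DESeq2 and the block together 1 and 3, the filter at 1 count 1 and 3, and the block with mouse 1, 2 or 3 left out gave 1, 2 and 2 higher and 3, 4 and 4 lower. With each library left out in turn, and with median-ratio size factors, total counts, filterByExpr or limma-voom, 0 of the 10 were called. The cause of these differences was not tested. DESeq2 gave no adjusted p for 3086 of the genes, and 4317 with the block, which are not among its calls. Over the 18 settings, Ccnd2, Ccnd3, Ccne1, Cdk6, Cdkn1a and Rb1 kept their direction in all, and the sign of Ccnd1 changed in 3, that of Cdk4, Cdkn1b and Myc in 1 each. The fewest reads behind a value were those of Ccnd2, whose counts were 61 to 485.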

Other observations

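Mouse 1 stood apart from mice 2 and 3 in more than the regulators. In its control library all 27 MYC targets and all 20 E2F targets lay below the mean of mice 2 and 3, with medians of -0.757 and -0.66 log2 units, and in its NaCl library all 27 and all 20 did so again, with medians of -0.775 and -0.856. The median over all genes was -7.77e-05 in the control and 0.0267 in the NaCl library. The 10 markers of G2 and mitosis did not lie on 1 side, with medians of 0.247 in the control and -0.033 in the NaCl library, and the 12 FOXO genes had medians of 0.479 and 0.452, with 2 and 3 of them below 0. The comparison of mice was chosen after the values were seen and carries no test.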
